A study of Mus musculus with 6 samples.

Results

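The 9 genes described here encode glycosyltransferases that build the sugar chains carried by mucins and other O-glycosylated proteins, out of 55341 gene symbols in the GENCODE annotation of GRCm38/mm10, 21924 of them protein-coding. The genes are C1galt1, Gcnt1, Gcnt3, Gcnt4 and B3gnt6, which form the core structures, B3gnt3, B3gnt7 and Gcnt2, which extend or branch the chains, and Fut2, which caps them. They were chosen by name with the H3K4me3 and H3K27me3 peak calls at their promoters in these same lists in view, so the states of these promoters are given as a description, with no test. H3K4me3 and H3K27me3 were mapped by ChIP-seq in organoids, which are cultures of epithelial cells grown in a gel, from the colon of C57BL/6 mice. The wt cultures were untreated, and the wt+TNFα cultures, also of wt organoids, received the inflammatory cytokine TNFα at 40 ng/ml for 3 weeks. Each condition had 1 H3K4me3 library, 1 H3K27me3 library and 1 input, and the labels give a depth of 40000000 reads per input or H3K4me3 library and 60000000 per H3K27me3 library. The paper's reporting summary gives more total reads for wt+TNFα than for wt in H3K4me3 and input, whose part in the H3K4me3 peaks called in wt+TNFα alone was not tested. There were no replicates, so a difference between the conditions has no replicate check and no test was made.

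Mucin-type O-glycosylation begins in the Golgi when N-acetylgalactosamine is attached to serine or threonine, and the core enzymes then add galactose or N-acetylglucosamine, on which longer, branched, fucosylated or sialylated chains grow. In the colon these chains make up much of the mass of the mucus barrier and serve as binding sites and food for bacteria. H3K4me3 is the histone mark found at the starts of genes that are transcribed or ready to be, while H3K27me3 is laid down by Polycomb complexes over genes that are kept silent, often across long domains.

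For every peak that MACS2 called, the deposited lists gave a position, a fold enrichment (ChIP signal divided by the local background) and a −log10 q, which grows as the call becomes surer. A promoter was counted as marked when a peak overlapped by at least 1 bp the window of 1000 bp on each side of any transcript start. The H3K4me3 lists were similar in size, with 11552 peaks over 18.2 Mb in wt and 11894 peaks over 20.0 Mb in wt+TNFα. The H3K27me3 lists stood apart, with 30594 peaks over 102 Mb in wt and 60540 peaks over 303 Mb in wt+TNFα, and on the X chromosome they held 247 and 11578 peaks. All 9 genes are autosomal, and the part of this difference between the lists in the results was not tested. Of 12 colon epithelial markers, 8 had a promoter H3K4me3 peak in both conditions, among them Epcam, Cdh1, Krt8 and Cdx2. Krt20 had one in wt alone, Car1 had one in wt+TNFα alone, and Lgr5 and Muc2, which mark stem cells and goblet cells, had none but carried H3K27me3 in both. None of 5 leukocyte, 6 fibroblast and muscle, and 3 endothelial markers had an H3K4me3 peak in either condition.

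The 9 genes fell into 3 sets. C1galt1, Gcnt4, B3gnt3, B3gnt7 and Fut2 had an H3K4me3 peak in both conditions and no H3K27me3 peak in either. Gcnt1 and Gcnt2 had H3K27me3 and no H3K4me3 in wt, and H3K4me3 and no H3K27me3 in wt+TNFα. Gcnt3 and B3gnt6 had no peak of either mark within the promoter window in either condition. In wt, 5 of the 9 promoters thus carried H3K4me3, against 24.3% of all genes and 50.5% of protein-coding genes, and in wt+TNFα 7 did, against 24.7% and 51.2%. H3K27me3 was present at 2 of the 9 in wt, against 14.2% of all genes and 21.7% of protein-coding genes. In wt+TNFα it was present at 0 of the 9, against 23.2% and 29.5%.

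H3K27me3 was present in wt alone at 2 of the 9 promoters, as at 1.04% of all genes and 1.21% of protein-coding genes. H3K4me3 was present in wt+TNFα alone at 2 of the 9, as at 0.851% and 1.49%, and in wt alone at 0 of the 9, as at 0.407% and 0.743%. By base, 2 of the 9 windows lost H3K27me3, against 3.39% of all genes and 5.22% of protein-coding genes, and 0 of the 9 gained it, against 17.1% and 20.6%. H3K27me3 in wt alone together with H3K4me3 in wt+TNFα alone was found at 34 genes, or 0.0614% of all genes, of which 25 were protein-coding (0.114% of protein-coding genes). Gcnt1 and Gcnt2 are among these 34, and since this was known when the genes were chosen, nothing is read from their number. Among the 7876 genes with H3K27me3 at the promoter in wt, 7.31% had none in wt+TNFα, and among the 13672 genes with H3K4me3 in wt+TNFα, 3.44% had none in wt. In a bulk culture, a mark that is lost from all cells and one that is lost because fewer cells carry it cannot be told apart.

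**Figure D1:**
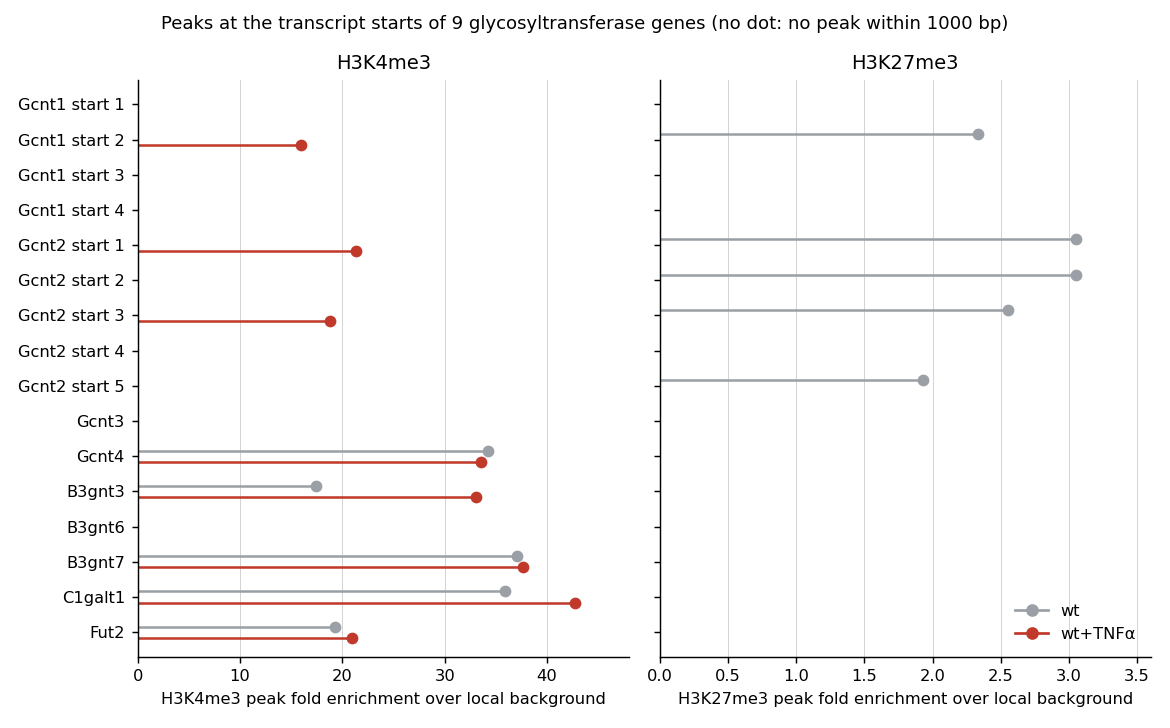
Fold enrichment of the strongest H3K4me3 peak (left) and H3K27me3 peak (right) within 1000 bp of each start group of the 9 genes, in wt (grey) and wt+TNFα (red), with 1 library for each dot. Starts of Gcnt1 and Gcnt2 are numbered in the direction of transcription, and a missing dot is a window with no called peak. Gcnt1 start 2 and Gcnt2 starts 1 and 3 have an H3K27me3 dot in wt alone and an H3K4me3 dot in wt+TNFα alone.

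The 9 genes have 24 annotated transcripts, which begin at 16 start groups when starts within 500 bp are joined. Gcnt1 has 4 groups, Gcnt2 has 5, and each of the other 7 genes has 1. Over the 9 start groups of Gcnt1 and Gcnt2, H3K27me3 was present in wt alone at 5, H3K4me3 in wt+TNFα alone at 3, and neither mark in either condition at 4. Each of the 3 groups that had H3K4me3 in wt+TNFα lay among the 5 that had H3K27me3 in wt. Shares over all start groups of the annotation were not computed. Gcnt1 and Gcnt2 were chosen with their peak calls in view, and Gcnt2 starts 1 and 2 lie under 1 wt H3K27me3 peak. Nothing is therefore read from these counts.

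The sequences just upstream of the Gcnt1 and Gcnt2 starts are given to show how starts of 1 gene differ. They are RefSeq sequences of GRCm38.p6, written 5′ to 3′, with CG dinucleotides in capitals, and they end before the most upstream start of their group. RefSeq promoter entries were found for 6 of the 9 genes and not matched for Gcnt3, B3gnt6 and Fut2.
Gcnt1 start 1, no peak, chr19:17372845-17373094, minus strand: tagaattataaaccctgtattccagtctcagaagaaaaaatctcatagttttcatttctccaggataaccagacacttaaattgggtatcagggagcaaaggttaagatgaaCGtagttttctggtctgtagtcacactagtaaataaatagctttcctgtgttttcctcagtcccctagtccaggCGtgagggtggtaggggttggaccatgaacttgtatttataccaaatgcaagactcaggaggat
Gcnt1 start 2, H3K27me3 in wt and H3K4me3 in wt+TNFα, chr19:17356668-17356917, minus strand: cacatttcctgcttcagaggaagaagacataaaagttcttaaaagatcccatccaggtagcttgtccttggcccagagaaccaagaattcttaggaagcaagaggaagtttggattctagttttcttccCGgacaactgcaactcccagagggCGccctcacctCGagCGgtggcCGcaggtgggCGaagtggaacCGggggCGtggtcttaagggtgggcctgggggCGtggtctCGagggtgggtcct
Gcnt1 start 3, no peak, chr19:17339569-17339755, minus strand: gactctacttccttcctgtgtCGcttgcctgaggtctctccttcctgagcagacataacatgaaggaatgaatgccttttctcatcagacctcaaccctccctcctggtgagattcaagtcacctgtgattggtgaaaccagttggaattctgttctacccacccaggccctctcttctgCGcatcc
Gcnt2 start 1, H3K27me3 in wt and H3K4me3 in wt+TNFα, chr13:40859518-40859753, plus strand: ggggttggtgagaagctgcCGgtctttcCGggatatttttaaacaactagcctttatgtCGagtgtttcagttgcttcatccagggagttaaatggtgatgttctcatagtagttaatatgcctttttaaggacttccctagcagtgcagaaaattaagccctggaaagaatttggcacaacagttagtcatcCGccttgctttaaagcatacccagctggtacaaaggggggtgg
Gcnt2 start 2, H3K27me3 in wt alone, chr13:40886508-40886757, plus strand: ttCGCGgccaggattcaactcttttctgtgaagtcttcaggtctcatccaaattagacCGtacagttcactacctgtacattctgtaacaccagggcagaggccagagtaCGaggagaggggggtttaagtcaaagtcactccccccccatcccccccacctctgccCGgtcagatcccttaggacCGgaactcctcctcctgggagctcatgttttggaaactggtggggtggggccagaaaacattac
Gcnt2 start 3, H3K27me3 in wt and H3K4me3 in wt+TNFα, chr13:40917384-40917600, plus strand: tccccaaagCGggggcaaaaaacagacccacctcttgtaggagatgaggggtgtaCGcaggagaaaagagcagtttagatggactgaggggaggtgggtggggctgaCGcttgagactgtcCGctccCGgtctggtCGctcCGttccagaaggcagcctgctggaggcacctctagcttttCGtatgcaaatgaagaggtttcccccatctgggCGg

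Over the full 250 bases before each RefSeq start, the marked Gcnt1 start 2 held 10 CG dinucleotides at 55.6% GC, while the unmarked starts 1 and 3 held 2 each, at 40.4% and 51.6% GC. At Gcnt2, start 3 held 11 at 59.6% GC, start 2 held 6 at 54% GC and start 1 held 5 at 45.6% GC, and the RefSeq start for start 2 was 435 bp from the GENCODE start. Over 32841 RefSeq promoters, the median was 6 CG dinucleotides and 52.4% GC. The H3K4me3 peak of wt+TNFα covered 160 of the 250 bases at Gcnt1 start 2, all 250 at Gcnt2 start 3 and 0 at Gcnt2 start 1, where the peak began 79 bp after the start. At Gcnt2, start 1, which gained H3K4me3, thus held fewer CG dinucleotides than start 2, which did not.

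In all, 4 short motifs were searched on both strands of the 250 bases before these 6 starts, and Gcnt1 start 4 and Gcnt2 starts 4 and 5 were not searched. TATAAA, present in 12.4% of all RefSeq promoters, matched 2 times at Gcnt1 start 1 and at none of the other 5 starts shown. CCAAT, present in 33.9%, matched at Gcnt1 starts 1 and 3, and GGGCGG, present in 32.7%, at Gcnt2 start 3. TGANTCA, present in 6.75%, matched at none of these 6 starts. Gcnt1 start 2 and Gcnt2 starts 1 and 2 held none of the 4 motifs. A match or its absence is a property of these letters alone.

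Gcnt2 encodes the I-branching enzyme, which turns linear poly-N-acetyllactosamine into the branched I antigen. It lies on the plus strand at chr13:40859754-40960892, spans 101139 bp and has 6 transcripts. Its 3 main protein-coding transcripts begin at start groups 1, 2 and 3, the latter 27439 bp and 57847 bp downstream of start 1, and each has 1203 coding bases. Of these, 919 lie in a first coding exon of its own and 284 (23.6%) in 2 coding exons that all 3 share.

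In wt, Gcnt2 lay under a broad H3K27me3 domain. A peak of 59544 bp at chr13:40852667-40912210 began 7087 bp before start 1 and covered starts 1 and 2. Its fold enrichment was 3.05 and its −log10 q was 4.46. It was wider than 99.9% of the wt H3K27me3 peaks and stronger by fold enrichment than 94.4% of them. After a gap of 2223 bp, a peak of 11783 bp at chr13:40914434-40926216 covered start 3, with a fold enrichment of 2.55 and a −log10 q of 2.51. The windows of these 3 start groups were each covered over 100% of their length. Start 4, 86978 bp from start 1, had no peak. Start 5, that of a retained-intron transcript 93661 bp from start 1, had a weak 681-bp peak (fold enrichment 1.93) that covered 34.0% of its window. There was no H3K4me3 peak anywhere in the gene in wt.

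In wt+TNFα, none of the 5 start windows of Gcnt2 had H3K27me3, and 2 of them had H3K4me3. At start 1, an H3K4me3 peak of 2505 bp at chr13:40859833-40862337 had a fold enrichment of 21.3 and a −log10 q of 113, with its summit 676 bp downstream of the start. At start 3, a peak of 2413 bp at chr13:40916875-40919287 had a fold enrichment of 18.8 and a −log10 q of 94.4, with its summit 60 bp downstream of a start. These peaks covered 46.1% and 86.6% of the windows, and each contained the whole 919 bases of that transcript's own first coding exon. Start 2, which had also been covered by H3K27me3 in wt, had neither mark in wt+TNFα. The nearest H3K27me3 peak in wt+TNFα ended 1363 bp before it, so that with windows of 2000 bp on each side Gcnt2 counted as marked by H3K27me3 in both conditions.

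**Figure D2:**
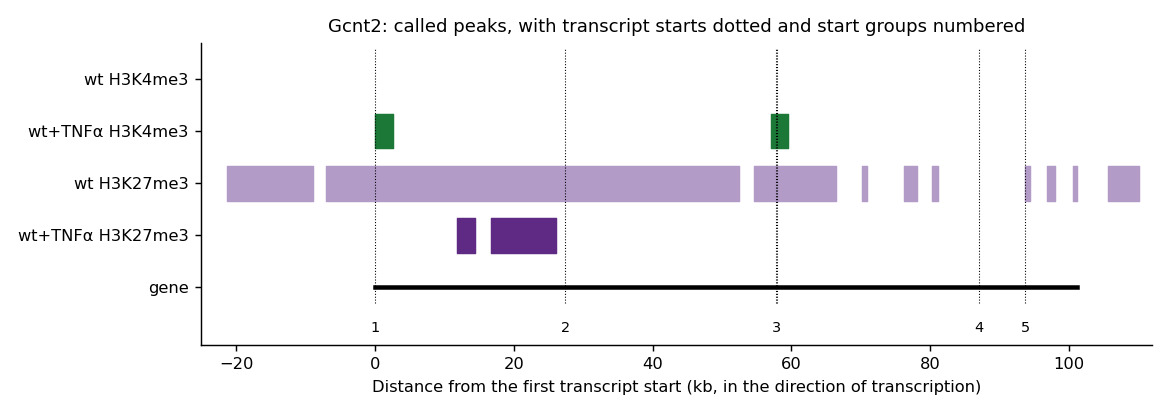
Called peaks along Gcnt2 against distance from its first transcript start in kb, 1 row for each list, with transcript starts dotted and start groups numbered under the gene bar. In wt, H3K27me3 lies over starts 1, 2 and 3 and from 40 bp downstream of start 5, and in wt+TNFα H3K4me3 lies at starts 1 and 3 while 2 H3K27me3 peaks remain between starts 1 and 2.

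H3K27me3 did not leave Gcnt2 completely. Between starts 1 and 2, wt+TNFα had 2 intronic peaks, one of 2567 bp (fold enrichment 2.02) and one of 9338 bp (2.18), and together they held 11905 bp, or 20% of the 59544 bp of the wt domain. Over the gene body, cover by H3K27me3 was 69.2% in wt and 11.8% in wt+TNFα, and cover by H3K4me3 was 0% and 4.86%. Among the 1414 autosomal protein-coding genes with at least 50% of the body covered in wt, the median change was a gain of 1.17 percentage points, and 201 had lower cover in wt+TNFα. Gcnt2 fell by 57.5 percentage points, and 35 of the 1414 genes (2.48%), Gcnt2 included, changed by that much or more. Since the H3K27me3 peaks of Gcnt2 were in view when it was chosen, this share is a description and not a test. Within 100 kb of the gene on each side, H3K27me3 covered 39.3% in wt and 28.4% in wt+TNFα.

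Other annotated genes share this domain. Gm31683, an antisense gene whose start at position 40917895 of chromosome 13 lies near start 3 of Gcnt2, had the same H3K27me3 peak in wt and the same H3K4me3 peak in wt+TNFα, and the peaks do not tell which of these genes they belong to. Mir5124a, Gm48192 and Gm48188 also have starts under the 59544-bp wt peak, and none of them had H3K4me3 in either condition. Their windows lost all H3K27me3 in wt+TNFα except that of Gm48192, where 969 of 2001 bp stayed covered.

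Gcnt1 encodes the core 2 enzyme, which adds the N-acetylglucosamine branch to core 1. It lies on the minus strand at chr19:17326141-17372844, spans 46704 bp and has 5 transcripts from 4 start groups. Its 4 protein-coding transcripts start at different groups but share 1 coding exon of 1284 bases, so that, unlike at Gcnt2, every start leads to the same coding sequence. Only start 2, 16177 bp downstream of start 1, carried a mark.

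At this start in wt, an H3K27me3 peak of 2077 bp at chr19:17355504-17357580 had a fold enrichment of 2.33 and a −log10 q of 1.41, and it covered 95.7% of the window. Its fold enrichment was above that of 81.1% of the wt list, although the peak was an isolated one, and within 100 kb of the gene on each side H3K27me3 covered only 1.35% in wt and 1.31% in wt+TNFα. In wt+TNFα the peak was absent, and an H3K4me3 peak of 1032 bp at chr19:17355796-17356827 lay inside the bounds of the former H3K27me3 peak. The H3K4me3 peak had a fold enrichment of 15.9, above that of 26.1% of its list, and a −log10 q of 73.6. Its summit was 183 bp downstream of the start, and it covered 51.6% of the window, with 111 bp in exon, 921 bp in intron and 0 bp in coding sequence. Starts 1, 3 and 4 had no peak in any of the 4 lists. At a −log10 q of at least 2 for H3K27me3, the wt peak of Gcnt1 was not counted and that of Gcnt2 was, and when only the outermost start of each gene was used, Gcnt1 had no peak of either mark.

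**Figure D3:**
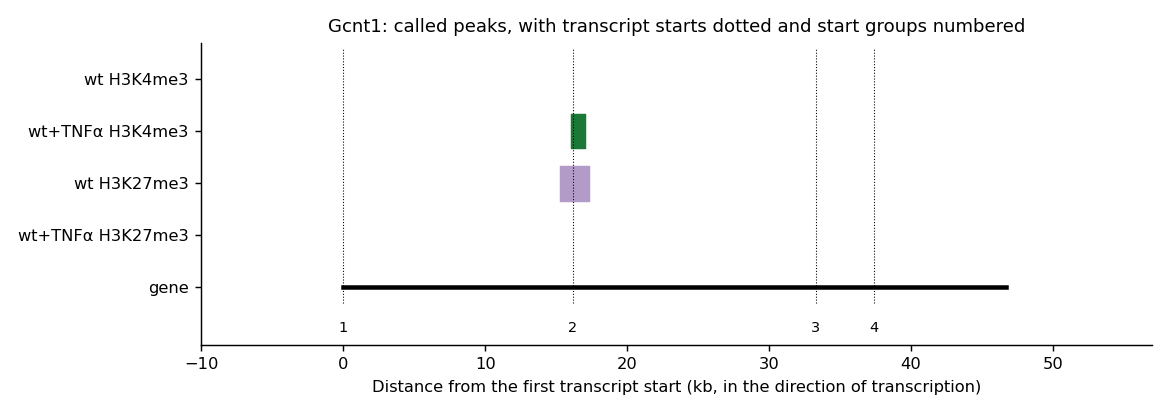
Called peaks along Gcnt1 against distance from its first transcript start in kb, 1 row for each list, with transcript starts dotted and start groups numbered under the gene bar. The 1032-bp H3K4me3 peak of wt+TNFα and the 2077-bp H3K27me3 peak of wt lie over start 2, and no peak lies at starts 1, 3 and 4.

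The H3K4me3 peaks that appeared at Gcnt1 and Gcnt2 were strong for peaks found in wt+TNFα alone, but their −log10 q was under the median of 180 of the whole list. Over the 471 genes with H3K4me3 in wt+TNFα alone, the median fold enrichment was 7.68 and the median width 647 bp. Fold enrichment was lower than at Gcnt1 in 86.6% of these genes and lower than at Gcnt2 in 91.7%. Both peaks were in view when the genes were chosen, so these ranks only describe them. Among the 34 genes that had H3K27me3 in wt alone and H3K4me3 in wt+TNFα alone, the H3K27me3 peaks were 376 to 112833 bp wide (median 2344 bp) and the H3K4me3 peaks 382 to 5352 bp wide (median 863 bp). The H3K27me3 domain of Gcnt2 was in the upper range of these, and the peak of Gcnt1 lay near the middle.

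At the 5 genes with H3K4me3 in both conditions, the peak lay over a transcript start in each condition. H3K4me3 at the promoter in both conditions without H3K27me3 in either was found for 20.5% of all genes and 42.4% of protein-coding genes. By base, H3K4me3 was gained within the window at Gcnt1, Gcnt2, B3gnt7 and C1galt1 (4 of 9, against 19.4% of all genes and 40.9% of protein-coding genes). It was lost at Gcnt4, B3gnt3 and Fut2 (3 of 9, against 9.95% and 21.1%). At the 5 genes with a peak in both conditions, the bases gained or lost within the window came to between 53 and 280 bp for each gene. Changes of these peaks outside the windows are not counted in these values. Over the 13201 genes with a promoter H3K4me3 peak in both conditions, the ratio of wt+TNFα to wt had a median of 1.07 for width and 1.07 for fold enrichment. The middle 90% of genes lay between 0.873 and 1.45 for width and between 0.678 and 1.82 for fold enrichment. B3gnt3 by fold enrichment and C1galt1 by width were above these ranges.

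C1galt1 encodes the core 1 synthase, which adds galactose to the first sugar and on which core 2 branching depends. It lies at chr6:7844842-7875687 on the plus strand. Its wt H3K4me3 peak measured 1812 bp (fold enrichment 35.9, −log10 q 218) and its wt+TNFα peak 3948 bp (fold enrichment 42.7, −log10 q 293). The width ratio of 2.18 was higher than that of 99.1% of genes. In wt, however, another peak, 1139 bp wide and enriched 7.41-fold, lay 681 bp further into the gene, within an intron, and wt+TNFα had a single peak over both. Taken from the outer edges, the marked stretch was 3632 bp in wt and 3948 bp in wt+TNFα, a ratio of 1.09. The RefSeq start lies 382 bp from the GENCODE start, and the 250 bases before it, which fall inside the annotated gene, held 44 CG dinucleotides at 82.8% GC, more than 99.5% of RefSeq promoters, and 5 matches to GGGCGG.

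B3gnt3 encodes an N-acetylglucosaminyltransferase that extends core 1. It lies at chr8:71690756-71701789 on the minus strand. Its H3K4me3 peak had a fold enrichment of 17.4 and a −log10 q of 138 in wt and of 33.1 and 216 in wt+TNFα. The ratio of 1.90 was higher than that of 96.2% of genes, and the peak moved from above 31.9% of its list to above 66.5%. The peak was 2272 bp wide in wt and 1993 bp in wt+TNFα, a ratio of 0.877 that was above that of 5.19% of genes.

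B3gnt7 encodes an N-acetylglucosaminyltransferase that elongates poly-N-acetyllactosamine chains. The gene is short, at 4474 bp (chr1:86302832-86307305, plus strand), and its whole body lay under 1 H3K4me3 peak in both conditions. This peak measured 5789 bp in wt and 6220 bp in wt+TNFα, wider than 99.7% and 99.5% of the peaks of its list. Its fold enrichment was 37.1 in wt and 37.6 in wt+TNFα. The antisense gene Gm28626 starts inside the same window, and a separate weaker peak upstream, enriched 5.36-fold in wt and 7.69-fold in wt+TNFα, lay at the start of Gm16341.

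Gcnt4, another core 2 enzyme, lies at chr13:96924689-96950906 on the plus strand, and its H3K4me3 peak was 1233 bp wide (fold enrichment 34.2) in wt and 1094 bp (33.5) in wt+TNFα. Fut2 encodes the fucosyltransferase that makes the H antigen of gut epithelium and secretions and lies at chr7:45648591-45666394 on the minus strand. Its H3K4me3 peak was 2215 bp wide (fold enrichment 19.3) in wt and 1990 bp (20.9) in wt+TNFα. Both genes were near the middle of all genes in the ratio of fold enrichment, at 0.981 for Gcnt4 and 1.08 for Fut2, and both peaks were narrower in wt+TNFα, with width ratios of 0.887 and 0.898 that were above those of 5.83% and 6.66% of genes. The sequences upstream of the Gcnt4 and B3gnt3 starts are shown, in the same notation, as examples of starts with H3K4me3 in both conditions.
Gcnt4, chr13:96924463-96924688, plus strand: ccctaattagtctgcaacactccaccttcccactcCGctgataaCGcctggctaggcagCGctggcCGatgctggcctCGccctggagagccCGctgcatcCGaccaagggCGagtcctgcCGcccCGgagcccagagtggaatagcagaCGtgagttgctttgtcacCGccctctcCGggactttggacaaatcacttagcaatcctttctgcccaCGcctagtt
B3gnt3, chr8:71701801-71702050, minus strand: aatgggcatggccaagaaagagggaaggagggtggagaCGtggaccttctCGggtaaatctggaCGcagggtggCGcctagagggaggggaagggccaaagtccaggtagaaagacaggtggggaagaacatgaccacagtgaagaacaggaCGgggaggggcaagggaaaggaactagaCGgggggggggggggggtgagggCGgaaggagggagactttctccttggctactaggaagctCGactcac

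The 250 bases before these RefSeq starts held 15 CG dinucleotides at Gcnt4 and 8 at B3gnt3, and the corresponding stretch at B3gnt7, which lies inside the annotated gene, held 16. GGGCGG matched 2 times at Gcnt4, 1 time at B3gnt3 and 2 times at B3gnt7. A further RefSeq start of Gcnt4, 345 bp upstream of the GENCODE start, held 3 CG dinucleotides and was covered by no H3K4me3 peak over its 250 bases. These bases held 1 match to CCAAT and 1 to TGANTCA, motifs present in 33.9% and 6.75% of RefSeq promoters.

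**Figure D4:**
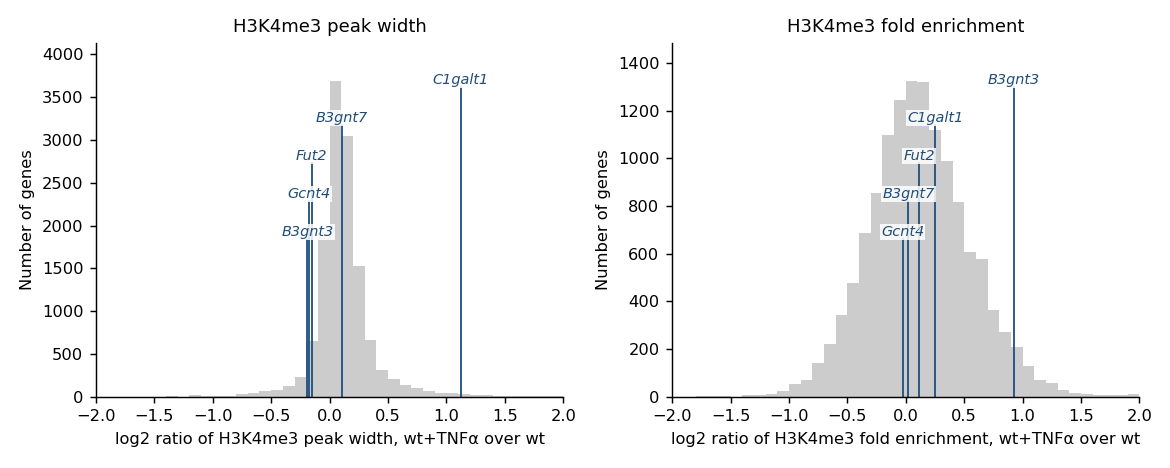
Ratio of wt+TNFα to wt on a log2 scale for the width (left) and fold enrichment (right) of promoter H3K4me3 peaks over 13201 genes with a peak in both conditions (grey bars, number of genes, with values beyond the axis placed in the outermost bars), and the 5 glycosyltransferase genes as labelled lines whose heights only separate the names. C1galt1 stands to the right for width (ratio 2.18) and B3gnt3 for fold enrichment (ratio 1.90).

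Gcnt3 and B3gnt6 had no promoter peak, as did 54.8% of all genes and 26.3% of protein-coding genes. Gcnt3, the mucin-type enzyme that makes core 2 and core 4 branches, lies at chr9:70031496-70038088 on the minus strand. In wt+TNFα it had an intronic H3K4me3 peak of 507 bp at chr9:70035915-70036421, which began 1667 bp downstream of the start, and in wt it had none. The peak was weak, with a fold enrichment of 5.81 that was above only 3.05% of the list, and no gene has a start within 1000 bp of it. B3gnt6, the core 3 synthase, lies at chr7:98192417-98199481 on the minus strand. H3K27me3 covered part of its 3′ exon in both conditions, over 1704 bp (fold enrichment 2.16) in wt and 1147 bp (1.95) in wt+TNFα. These peaks began 4978 bp and 5485 bp from the start.

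**Figure D5:**
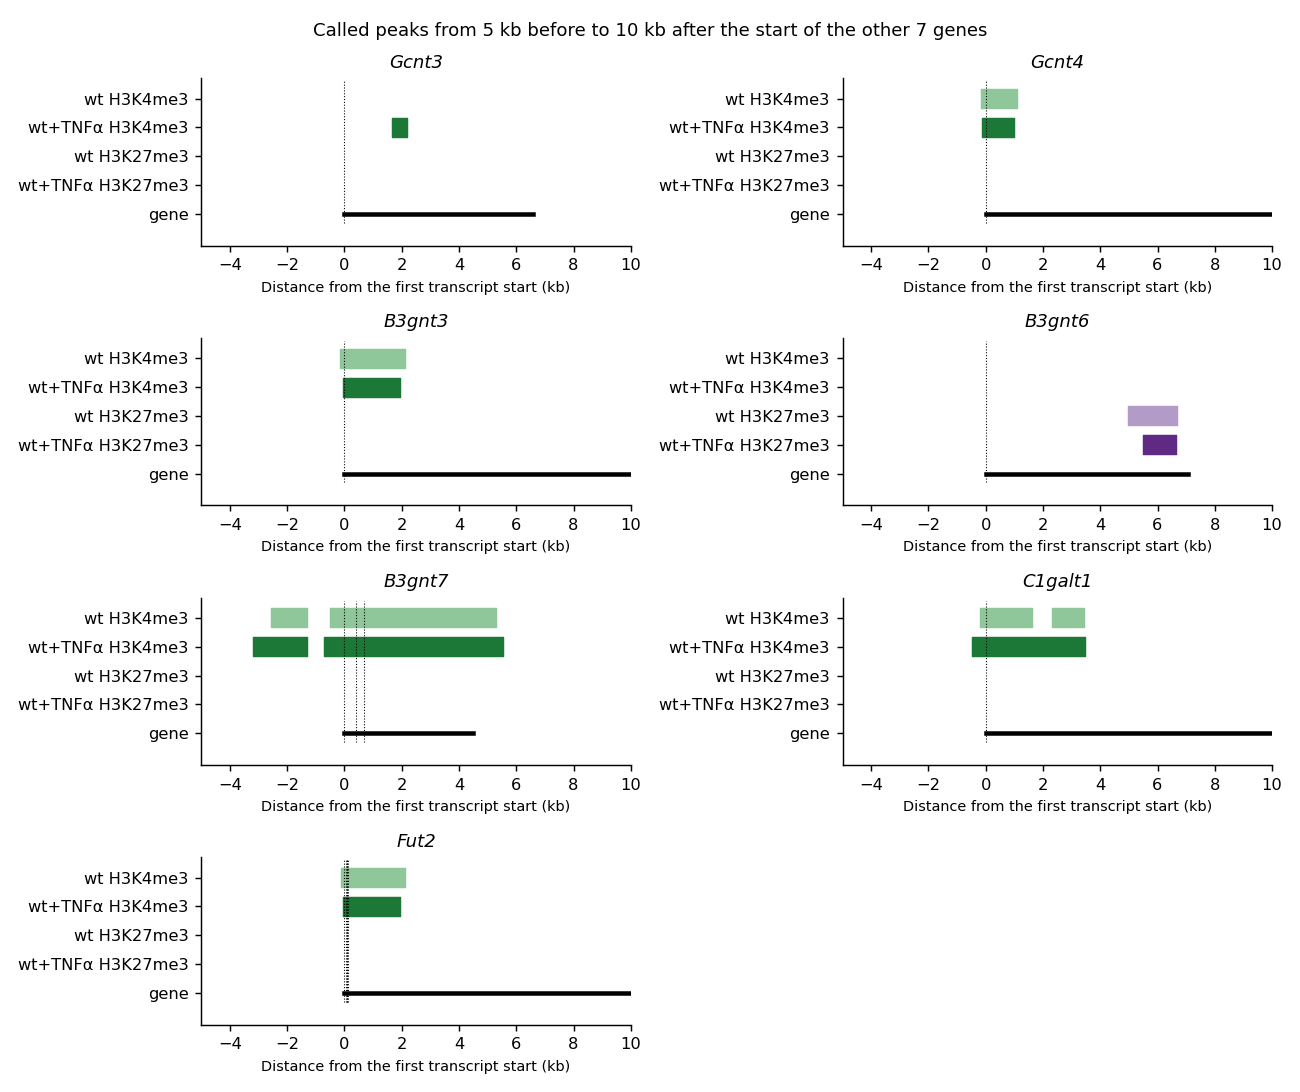
Called peaks from 5 kb before to 10 kb after the first transcript start of the 7 genes other than Gcnt1 and Gcnt2, 1 row for each list, with starts dotted and the gene as a black bar, drawn up to 10 kb. The H3K4me3 peaks of Gcnt4, B3gnt3, B3gnt7, C1galt1 and Fut2 lie at the start in both conditions, Gcnt3 has an intronic H3K4me3 peak in wt+TNFα, and B3gnt6 has H3K27me3 near its end in both.

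H3K27me3 around the 7 other genes moved in different directions. Within 100 kb on each side, it covered 9.32% in wt and 33.9% in wt+TNFα around Gcnt4, and 20.6% and 36.7% around Gcnt3. Cover was also higher in wt+TNFα around B3gnt3 (13.1% and 18.8%), B3gnt7 (2.51% and 6.86%) and Fut2 (1.96% and 7.18%). It was lower around C1galt1 (1.73% and 1.04%) and B3gnt6 (0.823% and 0.554%). None of this reached the promoter windows of these genes, although the wt+TNFα list covered far more of the genome.

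A wider list of 62 other O-glycan genes, which holds the enzymes that start the chains, the other core and extension enzymes, sialyltransferases, fucosyltransferases and sulfotransferases, was set beside these 9. H3K4me3 was present in both conditions at 32 of the 62 promoters, beside 23.9% of all genes and 49.7% of protein-coding genes, and at 1 in wt alone, at 0 in wt+TNFα alone and at 29 in neither. H3K27me3 was present in both at 20 of the 62, beside 13.2% of all genes and 20.5% of protein-coding genes, and in wt alone at 1. It was present in wt+TNFα alone at 10, beside 9.96% of all genes and 9% of protein-coding genes, and in neither at 31. The pattern of Gcnt1 and Gcnt2 was found at 0 of the 62, a count that says little beside its share of 0.0614% of all genes and 0.114% of protein-coding genes. Both marks were absent in both conditions at 7 of the 62, beside 54.8% of all genes and 26.3% of protein-coding genes.

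The 1 gene of that list with H3K4me3 in wt alone was St3gal2, a sialyltransferase, with a narrow peak of 352 bp and a fold enrichment of 7.24. The 1 gene with H3K27me3 in wt alone was Galnt13, which attaches the first sugar, with a fold enrichment of 2.41 and no H3K4me3 in either condition. H3K27me3 was found in wt+TNFα alone at 4 of 19 initiating genes (Galnt2, Galnt6, Galnt11 and Galntl5) and 4 of 14 core and extension genes (C1galt1c1, B3gnt4, B3gnt8 and B3galt5). It was also found in wt+TNFα alone at 1 of 12 sialyltransferases (St6galnac5), 1 of 9 fucosyltransferases and terminal enzymes (B4galnt2) and 0 of 8 sulfotransferases. Fold enrichments at these 10 genes were between 1.79 (B3galt5) and 2.74 (B3gnt4), and the B3gnt4 peak reached only 18 bp into the window.

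C1galt1c1, which encodes the chaperone that C1galt1 needs to fold, is on the X chromosome. There the H3K27me3 lists held 247 peaks in wt and 11578 in wt+TNFα. It had H3K4me3 in both conditions, enriched 7.01-fold in wt and 9.55-fold in wt+TNFα. H3K27me3 covered 0% of its window in wt and 100% in wt+TNFα, where the peak was enriched 1.94-fold. The part of the difference between the lists in this value was not tested. An H3K4me3 peak was also present in both conditions at Galnt2, Galnt6, Galnt11, B3galt5 and B4galnt2. Thus 6 of the 10 promoters with H3K27me3 in wt+TNFα alone had both marks within their windows there. H3K4me3 fold enrichments in wt and wt+TNFα were 29.5 and 27 at Galnt2, 16.6 and 8.9 at Galnt6, and 15.8 and 18.5 at Galnt11. They were 18.6 and 11.9 at B3galt5, and 28.4 and 21.6 at B4galnt2. Of all genes with H3K27me3 in wt+TNFα alone, 12.4% had H3K4me3 in wt+TNFα, and of the protein-coding ones 30.3%.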

How the data were processed

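H3K4me3 and H3K27me3 ChIP-seq of wt and wt+TNFα colonic organoids was analysed from 4 deposited peak lists (1 library per condition and mark); reads and inputs were not analysed here. Per the labels and the paper, the authors aligned reads to GRCm38/mm10 with BWA (version 2.2 per the labels), processed them with SAMtools 1.11 and called peaks against the input with MACS2, as narrow peaks for H3K4me3 and broad peaks for H3K27me3; the labels name MACS2 2.1.0 and the paper's reporting summary another version. In the deposited lists, fold enrichment is a ratio of ChIP signal to local background, and the p-value and q-value columns hold −log10 values. The authors' display score was not used, and the deposited summit offsets of the narrow peaks were used for position only. These values were computed by library, so they were ranked within a list, and ratios of them between lists were read only beside those of all genes. The name of every list except wt+TNFα H3K27me3 mentions a spike-in, which the text used here does not describe. The lists hold no read counts, so no interval is given for any value.

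Promoters reached 1000 bp to either side of each transcript start in the GENCODE annotation (55450 genes, 55341 symbols, 141767 transcripts), and starts within 500 bp were joined into groups. Gained and lost bases came from bedtools subtract 2.31.1, and other steps used Python 3.11.15, numpy 2.4.6 and matplotlib 3.10.9. Promoter sequences were RefSeq's (GRCm38.p6). As a check of the code alone, peaks without noise were planted in simulated lists of 1000 genes. There, 200 of 200 planted changes were recovered in each of 4 directions. The check cannot show how well weak or partial peaks are handled in the real lists. The 9 genes, the wider list and the settings were chosen with earlier results of these data known. All 9 genes are named, with every gene of the wider list that had a peak in 1 condition alone, every gene starting in a window of the 9 or under its H3K27me3 peak, and 13 alternative settings were listed first and 1 added later, with all alternatives for the exchange of marks at Gcnt1 and Gcnt2 also added later. Samples were grouped by their labels. Genes and peaks that fall outside this rule (Gm16341 and the epithelial markers) were named to place a value.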

Additional observations from a re-analysis of the deposited data

How the results depend on the processing

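The counts over the 9 genes, and over the starts of Gcnt1 and Gcnt2, were recomputed under 13 settings listed first and 1 added later. All of these settings were chosen with earlier results of these data known. Of the 98 values obtained, 80 were within 1.5 times the reported count and 18 moved further. The 80 include counts of 0 that stayed at 0. A count within that range can still hold other genes. For the exchange of H3K27me3 for H3K4me3, all 11 alternatives were chosen after the data were seen. With 1 start per gene, or with H3K27me3 peaks kept only at a −log10 q of at least 2, H3K27me3 was present in wt at 1 gene, lost at 1 and exchanged for H3K4me3 at 1, each time Gcnt2 and not Gcnt1, whose marked start is not its outermost and whose wt H3K27me3 peak had a −log10 q of 1.41. With windows of 2000 bp or 5000 bp on each side, 1 gene (Gcnt2) had H3K27me3 in wt+TNFα, and the exchange held at 1 gene (Gcnt1). Gcnt3 then had H3K4me3 in wt+TNFα (8 genes with it, and 5 that gained it), and at 5000 bp B3gnt6 had H3K27me3 in wt and lost part of it (3 genes each). A filter at each list's median −log10 q left H3K4me3 at 3 genes in wt and 4 in wt+TNFα, H3K4me3 loss at 1 and the exchange at 0, and the 3 genes that gained H3K4me3 were then B3gnt3, B3gnt7 and C1galt1, without Gcnt1 and Gcnt2. With whole peaks subtracted, or peaks extended by 1000 bp, H3K4me3 was gained at 2 genes (Gcnt1 and Gcnt2) and lost at 0. The added setting, equal covered length on the autosomes, and equal numbers of peaks both shorten the wt+TNFα H3K27me3 list, so they could not remove a loss of H3K27me3 and say nothing about its stability. With each transcript start of Gcnt1 and Gcnt2 on its own, H3K4me3 was found in wt+TNFα alone at 4 of 10 starts (3 of 9 start groups) and H3K27me3 in wt alone at 6 of 10 (5 of 9). No paired analysis was possible because each condition and mark has 1 library. The number of reads under each peak is not in the lists, so a gene without a peak is one where none was called at this depth.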
